A study of Mus musculus with 9 samples.

Results

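The genes described here encode collagens, laminins, nidogens and 3 further large matrix proteins, perlecan (Hspg2), agrin (Agrn) and fibronectin (Fn1). They were chosen by gene symbol alone: every probe set that the platform annotation pairs with exactly 1 symbol was taken where that symbol was a collagen chain, a laminin chain or one of the named genes. That gave 82 probe sets of 51 genes, out of 20380 probe sets of 12393 genes. Each gene was represented by 1 probe set, the one with the highest mean over the 9 arrays among those that passed the intensity filter. The 51 genes were 24 basement membrane genes, 9 fibrillar collagens, 17 other collagens and Fn1. Fras1 was not analysed here.

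The RNA came from wild-type mouse embryos of strain 129, of unknown sex, of stage E14.5 (Theiler stage 22). Structures were dissected from the kidney by their shape and hybridized to Affymetrix MOE430A arrays: the renal vesicle, which is the first epithelial stage of a nephron, the s-shaped body, its later folded stage, and the collecting duct system. Each structure had 3 arrays. A renal vesicle or s-shaped body sample pooled 20 structures, a collecting duct sample was 1 unpooled piece by its stated pool size of 1, and all RNA passed through 2 rounds of T7-driven amplification.

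A basement membrane is a thin sheet of matrix under an epithelium or around a vessel. Laminins, which are trimers of an alpha, a beta and a gamma chain, and type IV collagens each form a network in it, and nidogens and perlecan link the networks. Fibrillar collagens instead build the fibres of connective tissue and are made mainly by mesenchymal cells. In the developing kidney the laminin and collagen IV chains are known to be replaced by others as the glomerulus matures, when podocytes and endothelial cells lay down a shared membrane.

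Levels are given as log2 of the deposited intensity plus 26 after quantile normalization, and a difference between structures is a difference of mean levels on that scale, with 3 arrays on each side. Levels of different genes come from different probes and are not compared with each other. A gene is said to be higher or lower in a structure where limma gave a Benjamini-Hochberg adjusted p under 0.05 over all 7998 genes tested. A gene entered the test when it exceeded the array median of 7.28 in at least 3 arrays. The added 26 puts a floor of 4.70 under every level, so differences that reach down to dim values are understated.

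Marker genes of several cell types were summed in each array, and these lists set the frame for the matrix genes. The summed normalized intensity of 15 endothelial markers was 19245 to 19972 in the s-shaped bodies, 984 to 1527 in the renal vesicles and 1028 to 1329 in the collecting ducts, and all 12 of them that were tested were higher in the s-shaped body than in either other structure. Of all genes, 16.9% were higher in the s-shaped body than in the duct and 18.5% higher than in the renal vesicle. The sum of 15 stromal markers was 11746 to 12475 in the s-shaped bodies, 2292 to 2656 in the renal vesicles and 514 to 638 in the collecting ducts. The sum of 8 podocyte markers was 56113 to 57877 in the s-shaped bodies, 5573 to 13534 in the renal vesicles, where replicate 3 was the highest, and 3415 to 6090 in the collecting ducts. The sum of 7 early nephron markers was 9413 to 10876 in the renal vesicles, 733 to 869 in the s-shaped bodies and 1473 to 2396 in the collecting ducts. All 6 of them that were tested were lower in the s-shaped body than in the renal vesicle, against 17.8% of all genes. Against the duct, the s-shaped body had 4 of the 6 higher and 1 lower, where 16.9% and 15.9% of all genes were. The sum of 14 collecting duct markers was 44545 to 51078 in the ducts and 1511 to 1716 in the s-shaped bodies, and it varied among the renal vesicles, at 10724, 15068 and 3521. Of the 12 tested, the renal vesicle had 2 higher and 8 lower than the duct, where 15.6% and 15.9% of all genes were. The s-shaped body had 0 higher and 7 lower than the duct, where 16.9% and 15.9% of all genes were. Aqp2, the water channel of mature duct, passed the test in no comparison. The sum of 6 urothelial markers was 12687 to 16181 in the ducts, 486 to 685 in the renal vesicles and 399 to 572 in the s-shaped bodies. Of the 4 tested, 3 were lower in each nephron stage than in the duct, where 15.9% of all genes were lower in either comparison. Foxa1, which weighs most in the sum, was at 13.42 ± 0.14 (SD, n = 3) in the ducts against 6.38 ± 0.47 in the renal vesicles. In such bulk samples fewer cells of a type and less RNA per cell cannot be told apart, and the part of these cells in the results below was not tested.

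Of the 38 matrix genes that entered the test, more were higher than lower in each comparison. The renal vesicle had 12 genes higher and 6 lower than the collecting duct, where 15.6% and 15.9% of all tested genes were higher and lower, 31.5% together. The s-shaped body had 20 higher and 3 lower than the collecting duct, against 16.9% and 15.9% of all genes, 32.8% together. Set against the renal vesicle, the s-shaped body had 20 higher and 5 lower, against 18.5% and 17.8% of all genes, 36.3% together. The median differences of the 38 genes were 0.33, 0.68 and 0.78 in these comparisons, and those of all genes were 0.01, -0.03 and -0.03. Arrays that did not overlap were counted too. All 3 renal vesicle arrays lay above all 3 duct arrays for 12 of the 38 genes and below for 6, against 21.2% and 22.1% of all genes. The s-shaped body lay above the duct for 23 and below for 5, against 21.3% and 22.6%, and above the renal vesicle for 23 and below for 6, against 25.9% and 27.0%. Each structure enters 2 of the 3 comparisons, so the counts are not independent of each other. Of the 38, 4 genes (Col4a3, Lama1, Lamb3 and Lamc3) passed the intensity filter with just 3 arrays above the median. For Lama1 these were the 3 renal vesicle arrays, for Lamb3 the 3 collecting duct arrays and for Lamc3 the 3 s-shaped body arrays. These 3 genes thus entered the test only through the structure where they were high. Their tests and the counts over the genes that passed are a description.

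**Figure D1:**
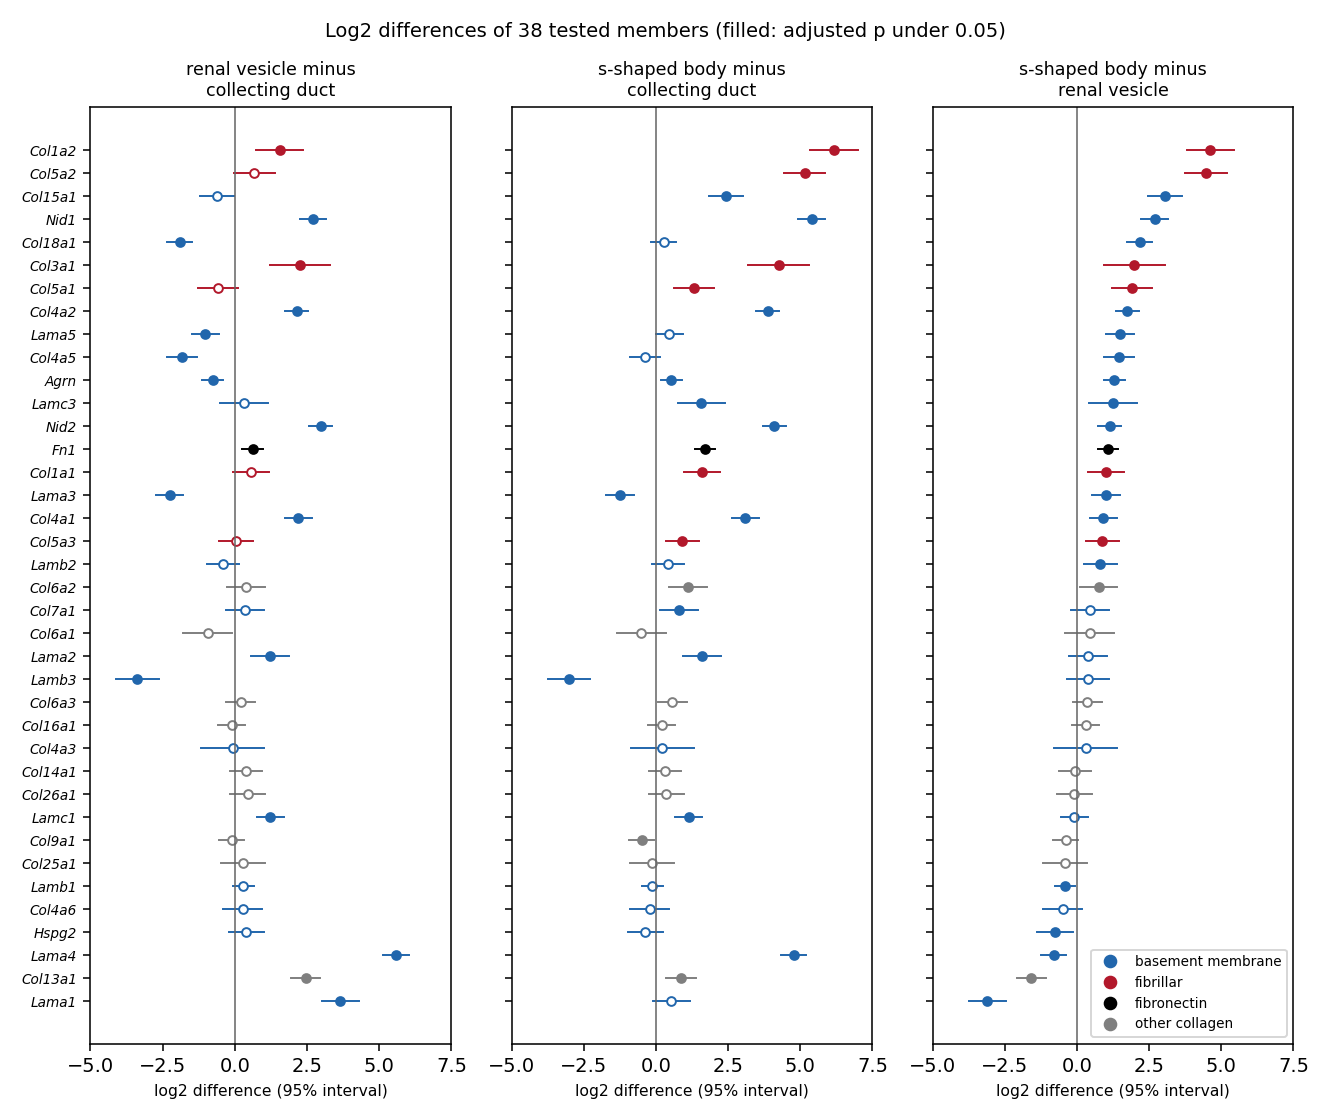
Log2 difference of each of the 38 tested matrix genes in the 3 comparisons (panels), coloured as basement membrane genes, fibrillar collagens, other collagens or Fn1; points are estimates, bars are 95% intervals, and filled points passed the test. All 6 fibrillar collagens lie to the right of 0 in both panels of the s-shaped body, while the basement membrane genes spread to both sides.

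Basement membrane and fibrillar genes are described apart. Of 22 tested basement membrane genes, the renal vesicle had 8 higher and 6 lower than the collecting duct, the s-shaped body had 11 higher and 2 lower than the collecting duct, and 12 higher and 4 lower than the renal vesicle. The shares of all genes higher and lower were 15.6% and 15.9%, 16.9% and 15.9%, and 18.5% and 17.8% in this order, here and for the fibrillar collagens. All 6 tested fibrillar collagens were higher in the s-shaped body than in each of the others, and in the renal vesicle 2 of the 6 exceeded the collecting duct. The s-shaped body exceeded both other structures for 15 of the 38 genes, against 10.8% of all genes. The renal vesicle exceeded both for 3 genes, Lama1, Lama4 and Col13a1, and the collecting duct for 2, Lama3 and Lamb3, against 8.23% and 8.25% of all genes. Of these, Lama1 and Lamb3 entered the test only through their high structure, as did Lamc3 among the 15. The collecting duct was lower than both others by the test for 11 genes, against 6.11%, and the renal vesicle for 5, against 6.30%. No gene was lower in the s-shaped body than in both others, a pattern that 6.74% of all genes had.

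The 5 laminin alpha chains divided between the structures: Lama1 and Lama4 were highest in the renal vesicle, Lama3 in the collecting duct, and Lama2 and Lama5 had their highest means in the s-shaped body. Lama1, which encodes the alpha chain of early embryonic laminin, reached 9.74, 10.23 and 10.47 in the 3 renal vesicle arrays. In the s-shaped body its levels were 6.94, 6.97 and 7.22, and in the collecting duct 7.07, 6.28 and 6.16. All renal vesicle arrays thus lay above all others, and the s-shaped body and collecting duct arrays overlapped. The renal vesicle was higher than the collecting duct by 3.64 ± 0.26 (SE, adjusted p = 7.5e-07), or 12.5-fold, and the s-shaped body was lower than the renal vesicle, with a difference of -3.10 ± 0.26 (SE, adjusted p = 3.5e-06). Between s-shaped body and collecting duct the difference was 0.54 (95% interval -0.10 to 1.18, adjusted p = 0.14), and without the bright collecting duct replicate 1 it was 0.82 (adjusted p = 0.018).

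Lama4, an alpha chain known from vessel and mesenchymal basement membranes, was high in both nephron stages and near the floor in the duct. Its levels were 10.80, 10.81 and 10.95 in the renal vesicles, 9.77, 10.08 and 10.28 in the s-shaped bodies and 5.11, 5.44 and 5.27 in the collecting ducts, with no overlap between any pair of structures. The s-shaped body exceeded the collecting duct by 4.77 ± 0.18 (SE, adjusted p = 4.0e-09) and lay below the renal vesicle, with a difference of -0.81 ± 0.18 (SE, adjusted p = 0.0036). The endothelial marker sum was 984 to 1527 in the renal vesicle and 1028 to 1329 in the duct, while the stromal sum was 2292 to 2656 and 514 to 638, and the part of these cells in the Lama4 result was not tested. Lama2, the alpha chain best known from muscle, was dimmer but also higher in both nephron stages. It measured 7.46, 7.40 and 7.61 in the renal vesicle, 8.13, 7.67 and 7.82 in the s-shaped bodies and 5.92, 6.89 and 5.97 in the collecting duct, a difference of 1.23 ± 0.27 (SE, adjusted p = 0.0041) for the renal vesicle and 1.61 ± 0.27 (SE, adjusted p = 5.1e-04) for the s-shaped body against the duct.

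Lama5, the alpha chain of most mature epithelial basement membranes and of the glomerulus, was lowest in the renal vesicle. The renal vesicle arrays gave 7.15, 7.60 and 7.63, the s-shaped body arrays 8.78, 9.22 and 8.84 and the collecting duct arrays 8.56, 8.55 and 8.33. Every s-shaped body array exceeded every renal vesicle array, and the difference was 1.49 ± 0.19 (SE, adjusted p = 9.3e-05). The renal vesicle was lower than the collecting duct, with a difference of -1.02 ± 0.19 (SE, adjusted p = 0.0017), and the s-shaped body differed from the duct by 0.47 (95% interval -0.0044 to 0.94, adjusted p = 0.085). From renal vesicle to s-shaped body, Lama1 was thus lower by 8.60-fold and Lama5 higher by 2.80-fold, each on its own probe set.

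Lama3 and Lamb3, chains of the laminin that anchors stratified and bladder epithelia, were highest in the collecting duct. Lama3 measured 9.24, 9.28 and 8.95 in the collecting duct, 7.61, 8.06 and 8.06 in the s-shaped bodies and 6.86, 7.09 and 6.76 in the renal vesicle, and no 2 structures overlapped. Both nephron stages were lower than the duct, with differences of -2.25 ± 0.19 (SE, adjusted p = 3.3e-06) for the renal vesicle and -1.25 ± 0.19 (SE, adjusted p = 2.9e-04) for the s-shaped body. Lamb3 measured 9.18, 9.06 and 8.37 in the collecting duct, against 5.68, 4.95 and 5.86 in the renal vesicle and 5.81, 6.04 and 5.76 in the s-shaped body. Its differences from the duct were -3.38 ± 0.30 (SE, adjusted p = 4.2e-06) and -3.00 ± 0.30 (SE, adjusted p = 6.7e-06), and the nephron stages overlapped. The urothelial marker sum was also highest in the duct: over 6 markers it was 12687 to 16181 in the collecting ducts, 486 to 685 in the renal vesicles and 399 to 572 in the s-shaped bodies. It adds linear intensities, so the bright Foxa1 weighs most in the ducts. Of the 6 markers, 4 were tested. Against the duct, each nephron stage had 3 lower and 1 not passing, where 15.9% of all genes were lower in either comparison. The part of urothelial cells in the result was not tested.

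**Figure D2:**
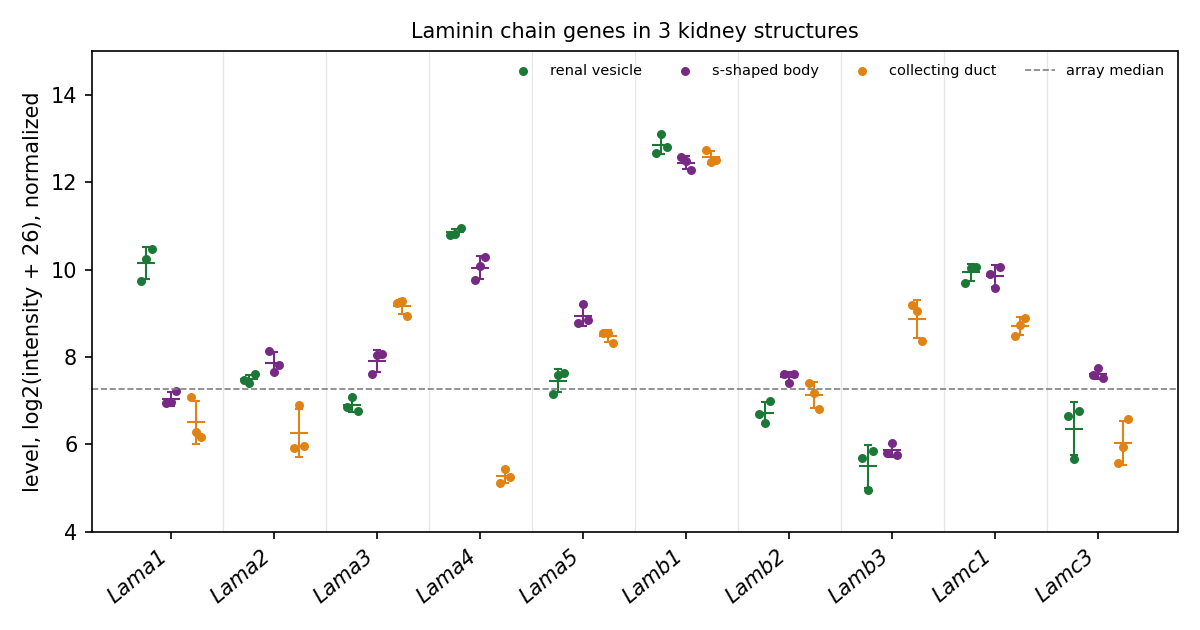
Levels of the laminin chains, log2(intensity + 26) on the vertical axis, in the 3 structures; each point is 1 array, each short line a mean of 3 with its SD, and the dashed line the array median. Lama1 stands apart in the renal vesicle, Lama3 and Lamb3 in the collecting duct, and Lama4 in both nephron stages.

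Lamb1, the beta chain of early laminins, was bright on all arrays, at 12.67 to 13.10 in the renal vesicle, 12.28 to 12.57 in the s-shaped bodies and 12.46 to 12.74 in the collecting duct. The call on this probe set was a lower level in the s-shaped body than in the renal vesicle, -0.41 ± 0.15 (SE, adjusted p = 0.044), and that call was lost without any 1 of renal vesicle replicates 2 and 3, collecting duct replicate 2 and the 3 s-shaped body replicates, with differences of -0.29 to -0.48 and adjusted p-values of 0.052 to 0.21. Between renal vesicle and duct Lamb1 differed by 0.29 (95% interval -0.07 to 0.65, adjusted p = 0.16), and passed the test with median centring in place of quantile normalization (0.57, adjusted p = 0.012) and with the mean of probe sets (0.70, adjusted p = 0.010). On a second Lamb1 probe set the renal vesicle exceeded the duct by 1.11 (adjusted p = 0.0072). There the s-shaped body differed from the renal vesicle by -0.54 (adjusted p = 0.13), so the call between the nephron stages was not seen on both. Lamb2, the beta chain of the mature glomerular membrane, was higher in the s-shaped body (7.40 to 7.61) than in the renal vesicle (6.49 to 6.99), by 0.82 ± 0.23 (SE, adjusted p = 0.014), which missed the threshold without renal vesicle replicate 2 (0.70, adjusted p = 0.061). Lamb2 in the collecting duct lay between, at 6.81 to 7.40, and differed from neither nephron stage by the test.

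Lamc1, the gamma chain shared by most laminins, was higher in both nephron stages than in the duct. It measured 9.70, 10.05 and 10.05 in the renal vesicle, 9.90, 9.57 and 10.06 in the s-shaped bodies and 8.49, 8.73 and 8.90 in the collecting duct. The differences from the duct were 1.23 ± 0.19 (SE, adjusted p = 4.1e-04) and 1.14 ± 0.19 (SE, adjusted p = 5.4e-04), and that between the nephron stages was -0.09 (95% interval -0.56 to 0.38, adjusted p = 0.76). Lamc3, a rarer gamma chain, was dim, at 7.58, 7.75 and 7.51 in the s-shaped body against 6.66, 5.66 and 6.76 and 5.59, 5.94 and 6.58 in the renal vesicle and the duct. The s-shaped body was higher by 1.58 ± 0.34 (SE, adjusted p = 0.0031) than the duct and by 1.25 ± 0.34 (SE, adjusted p = 0.012) than the renal vesicle. A brighter Lamc3 probe set that failed the filter gave differences of -0.06 and 0.14, so the direction rests on the choice of probe set, and without renal vesicle replicate 2 the second difference was 0.90 (adjusted p = 0.050).

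Among the type IV collagens, Col4a1 and Col4a2, whose chains form the network of nearly every basement membrane, were graded over the 3 structures in the same order. Col4a1 measured 10.16, 10.39 and 10.91 in the collecting duct, 12.42, 12.69 and 12.91 in the renal vesicle and 13.58, 13.49 and 13.68 in the s-shaped body. Its deposited intensities were 1184, 1332 and 1812, then 5831, 6847 and 8171, then 11899, 10751 and 13405. The 3 structures did not overlap, and the differences were 2.19 ± 0.19 (SE, adjusted p = 3.8e-06) and 3.10 ± 0.19 (SE, adjusted p = 1.4e-07) from the duct and 0.91 ± 0.19 (SE, adjusted p = 0.0028) between the nephron stages. A second Col4a1 probe set gave 0.45 for renal vesicle against duct, with overlapping arrays (adjusted p = 0.24), 1.71 for s-shaped body against duct and 1.25 between the nephron stages (adjusted p = 4.6e-04 and 0.0040), so the step from duct to renal vesicle was not seen on both. Col4a2 measured 7.97, 7.72 and 8.04 in the duct, 10.01, 9.90 and 10.23 in the renal vesicle and 11.75, 11.79 and 11.84 in the s-shaped body. It differed by 2.14 ± 0.16 (SE, adjusted p = 1.2e-06), 3.88 ± 0.16 (SE, adjusted p = 5.6e-09) and 1.74 ± 0.16 (SE, adjusted p = 7.3e-06), or 14.7-fold between s-shaped body and duct.

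The start regions of these genes are shown because Col4a1 and Col4a2 share one. In RefSeq's annotation of GRCm38.p6 their start sites lie 21 bases apart on chromosome 8 on opposite strands, and the windows from 250 bases before to 50 after each start overlap by 78 bases. The window of Col4a2 (chr8:11312555-11312854, plus strand) is printed with those of Col1a2 (chr6:4505368-4505667, plus strand), the fibrillar gene with the largest difference, Nid1 (chr13:13437352-13437651, plus strand) and Lama5 (chr2:180225810-180226109, minus strand), each read 5′ to 3′ along the gene. Capitals mark 3 short motifs on either strand. The first is the CCAAT box. The second is the core of the GC box, GGGCGG. The third is the TATA box, searched as TATAAA.
Col4a2: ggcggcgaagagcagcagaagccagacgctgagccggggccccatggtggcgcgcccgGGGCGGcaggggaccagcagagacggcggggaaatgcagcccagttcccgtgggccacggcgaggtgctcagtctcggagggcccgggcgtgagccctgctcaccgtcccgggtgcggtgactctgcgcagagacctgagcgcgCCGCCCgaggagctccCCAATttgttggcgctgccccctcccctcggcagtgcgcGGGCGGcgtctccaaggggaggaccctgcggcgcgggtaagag
Col1a2: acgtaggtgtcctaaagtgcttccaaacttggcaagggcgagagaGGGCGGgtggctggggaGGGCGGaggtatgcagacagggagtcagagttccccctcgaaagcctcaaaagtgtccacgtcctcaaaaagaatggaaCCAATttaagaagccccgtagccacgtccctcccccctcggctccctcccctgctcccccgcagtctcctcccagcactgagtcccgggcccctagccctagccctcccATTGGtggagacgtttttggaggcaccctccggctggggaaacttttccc
Nid1: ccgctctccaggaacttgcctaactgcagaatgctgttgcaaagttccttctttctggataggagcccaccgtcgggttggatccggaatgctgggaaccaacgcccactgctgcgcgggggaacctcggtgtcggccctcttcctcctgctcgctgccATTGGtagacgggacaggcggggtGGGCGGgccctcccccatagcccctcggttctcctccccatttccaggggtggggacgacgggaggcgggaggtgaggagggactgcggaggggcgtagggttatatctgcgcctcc
Lama5: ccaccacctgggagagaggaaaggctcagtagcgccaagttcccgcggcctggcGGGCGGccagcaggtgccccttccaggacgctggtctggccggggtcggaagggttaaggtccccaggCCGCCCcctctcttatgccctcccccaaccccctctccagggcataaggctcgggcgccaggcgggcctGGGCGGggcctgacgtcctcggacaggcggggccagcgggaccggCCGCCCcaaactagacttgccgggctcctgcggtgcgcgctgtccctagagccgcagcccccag
The Col4a2 window held 1 CCAAT box and 3 GC boxes, that of Col1a2 held 2 and 2, that of Nid1 held 1 and 1, and that of Lama5 held 0 and 4, and none of these 4 windows held a TATA box. No matches overlapped. A window was present for 35 of the 51 genes. The CCAAT box stood in 13 of the 35 (37.1%), against 37.9% of all 27025 windows. The GC box stood in 22 (62.9%), against 35.9% of all windows. The TATA box stood in 5 (14.3%), against 14.2% of all windows. The 27025 windows, 1 per gene, were not limited to genes on the array, so the shares compared come from unlike sets of genes. All matches are letters in a window and no measure of binding.

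The other type IV chains, which are known for the mature glomerular and tubular membranes, did not follow Col4a1 and Col4a2. Col4a5 was lowest in the renal vesicle, at 8.79, 9.09 and 9.38, against 10.74, 10.23 and 10.69 in the s-shaped bodies and 11.24, 10.75 and 10.79 in the collecting duct. The renal vesicle was lower than the duct, with a difference of -1.84 ± 0.21 (SE, adjusted p = 4.3e-05), the s-shaped body was higher than the renal vesicle by 1.47 ± 0.21 (SE, adjusted p = 2.2e-04), and the s-shaped body differed from the duct by -0.37 (95% interval -0.90 to 0.15, adjusted p = 0.22). Col4a5 and Col4a6 also start near each other, 1343 bases apart on chromosome X, but Col4a6 was dim (6.86 to 7.91 in the renal vesicle, 6.75 to 7.20 in the s-shaped bodies and 6.95 to 7.36 in the duct) and passed no test, although without renal vesicle replicate 1 the s-shaped body differed from the renal vesicle by -0.79 (adjusted p = 0.034). A second Col4a6 probe set was lower in both nephron stages than in the duct, with differences of -1.53 (adjusted p = 5.9e-04) and -1.18 (adjusted p = 0.0028). Col4a3 overlapped in all comparisons and passed no test, with differences of -0.08 and 0.23 from the duct (adjusted p = 0.92 and 0.74). Col4a4 was too dim to be tested, at 6.48, 5.92 and 6.24 in the s-shaped body, above its 4.82 to 5.17 in the renal vesicle and 4.94 to 5.20 in the duct.

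Both nidogens, the linkers between laminin and collagen IV, increased in the order collecting duct, renal vesicle, s-shaped body. Nid1 measured 6.82, 6.79 and 6.90, then 9.40, 9.32 and 9.90, then 12.39, 12.04 and 12.25 in these structures. The s-shaped body was higher than the renal vesicle by 2.69 ± 0.19 (SE, adjusted p = 7.9e-07) and the renal vesicle higher than the duct by 2.71 ± 0.19 (SE, adjusted p = 5.5e-07). Nid2 measured 6.01, 5.79 and 5.77, then 8.78, 8.92 and 8.77, then 10.06, 9.89 and 9.92. Its step from duct to renal vesicle, 2.97 ± 0.16 (SE, adjusted p = 6.6e-08), was about as large as that of Nid1, whereas its step from renal vesicle to s-shaped body, 1.13 ± 0.16 (SE, adjusted p = 1.7e-04), was smaller, although the difference between the genes was not tested. No pair of structures overlapped for either gene. The stromal marker sum had the same order of the 3 structures, and the endothelial and podocyte sums were also highest in the s-shaped body. The part of these cells in the result was not tested.

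**Figure D3:**
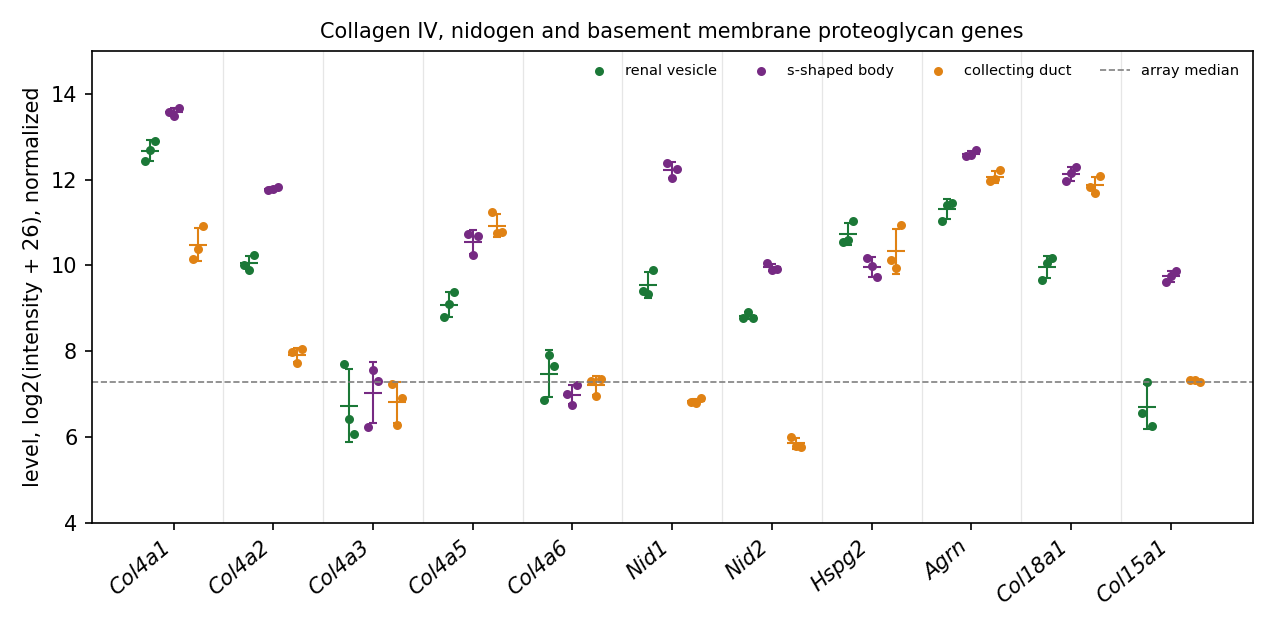
Levels of type IV collagens, nidogens and other basement membrane genes, log2(intensity + 26), in the 3 structures; points are arrays, short lines are means of 3 with their SD, and the dashed line is the array median. Col4a1, Col4a2, Nid1 and Nid2 step up from collecting duct to renal vesicle to s-shaped body, and Col4a5 and Col18a1 dip in the renal vesicle.

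Agrn and Col18a1, which both carry heparan sulfate chains, were low in the renal vesicle. Agrin, which also binds dystroglycan, measured 11.04, 11.41 and 11.47 in the renal vesicle, 12.56, 12.57 and 12.68 in the s-shaped bodies and 11.96, 12.01 and 12.23 in the duct. It differed by -0.76 ± 0.15 (SE, adjusted p = 0.0021) between renal vesicle and duct and by 1.30 ± 0.15 (SE, adjusted p = 3.7e-05) between the nephron stages. The smaller difference between s-shaped body and duct, 0.54 ± 0.15 (SE, adjusted p = 0.016), missed the threshold without collecting duct replicate 2 (0.51, adjusted p = 0.055) or s-shaped body replicate 3 (0.49, adjusted p = 0.060). Col18a1, whose C-terminal fragment is endostatin, measured 9.67, 10.05 and 10.16 in the renal vesicle, 11.98, 12.15 and 12.29 in the s-shaped bodies and 11.82, 11.69 and 12.09 in the duct. The renal vesicle differed from the duct by -1.90 ± 0.18 (SE, adjusted p = 6.0e-06), and the s-shaped body from the renal vesicle by 2.18 ± 0.18 (SE, adjusted p = 2.5e-06), while s-shaped body and duct overlapped.

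Col15a1, a relative of Col18a1 found around vessels, was highest in the s-shaped body. It measured 9.61, 9.75 and 9.87 there, 6.56, 7.29 and 6.26 in the renal vesicle and 7.33, 7.32 and 7.29 in the duct, and the s-shaped body exceeded them by 3.04 ± 0.24 (SE, adjusted p = 2.1e-06) and 2.43 ± 0.24 (SE, adjusted p = 5.7e-06). The endothelial, stromal and podocyte marker sums were all highest in the same arrays, and the part of these cells in the result was not tested. The renal vesicle differed from the duct by -0.61 (95% interval -1.19 to -0.02, adjusted p = 0.072) in Col15a1, and without renal vesicle replicate 2 by -0.90 (adjusted p = 0.0066). Perlecan, Hspg2, was lower in the s-shaped body (9.72 to 10.17) than in the renal vesicle (10.55 to 11.02), with a difference of -0.76 ± 0.25 (SE, adjusted p = 0.032), and this call was lost without any 1 of the 3 renal vesicle replicates and s-shaped body replicates 2 and 3, with differences of -0.61 to -0.84 and adjusted p-values of 0.051 to 0.12. Between renal vesicle and duct Hspg2 differed by 0.40 (95% interval -0.22 to 1.02, adjusted p = 0.26), and without collecting duct replicate 3 by 0.70 (adjusted p = 0.017). Col7a1, the anchoring fibril collagen, was higher in the s-shaped body (8.35 to 8.58) than in the duct (7.12 to 8.30), by 0.81 ± 0.27 (SE, adjusted p = 0.037), a call lost without any 1 of the 3 s-shaped body replicates and collecting duct replicates 1 and 2, with differences of 0.52 to 0.88 and adjusted p-values of 0.063 to 0.13.

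The fibrillar collagens shared 1 pattern, with the s-shaped body above both other structures in all 6 tested genes and no overlap of its arrays with theirs. Col1a2, a chain of type I collagen, had the largest difference. It measured 13.62, 13.81 and 13.996 in the s-shaped bodies, 8.19, 9.47 and 9.90 in the renal vesicle and 7.68, 7.49 and 7.75 in the collecting duct. The s-shaped body exceeded the duct by 6.17 ± 0.34 (SE, adjusted p = 4.7e-08), or 72.0-fold, and the renal vesicle by 4.62 ± 0.34 (SE, adjusted p = 1.2e-06). The renal vesicle also exceeded the duct, by 1.55 ± 0.34 (SE, adjusted p = 0.0040), with replicate 1 the lowest of its arrays. Col1a1, the partner chain, differed less on its own probe set, at 8.67, 9.18 and 9.001 in the s-shaped bodies, 7.73, 7.72 and 8.34 in the renal vesicle and 7.11, 7.11 and 7.86 in the duct. Its differences were 1.59 ± 0.25 (SE, adjusted p = 3.7e-04) and 1.02 ± 0.25 (SE, adjusted p = 0.0078) for the s-shaped body, and 0.57 (95% interval -0.05 to 1.20, adjusted p = 0.11) for the renal vesicle against the duct, or 0.84 (adjusted p = 0.018) without collecting duct replicate 3.

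Col3a1, the type III chain of reticular fibres, measured 10.28, 9.95 and 10.55 in the s-shaped bodies, 7.65, 9.29 and 7.87 in the renal vesicle and 6.64, 5.17 and 6.22 in the duct. It was higher in the s-shaped body than in the duct by 4.25 ± 0.43 (SE, adjusted p = 7.2e-06) and the renal vesicle exceeded the duct by 2.26 ± 0.43 (SE, adjusted p = 0.0016). Renal vesicle replicate 2 stood above its fellows and collecting duct replicate 2 below its own. Col5a2, a type V chain that sits within type I fibrils, measured 11.99, 11.66 and 12.09 in the s-shaped bodies, 7.44, 8.16 and 6.72 in the renal vesicle and 6.84, 6.88 and 6.58 in the duct. The s-shaped body exceeded these by 4.48 ± 0.29 (SE, adjusted p = 5.9e-07) and 5.15 ± 0.29 (SE, adjusted p = 7.2e-08). The renal vesicle overlapped the duct and differed by 0.67 (95% interval -0.05 to 1.39, adjusted p = 0.10), and without renal vesicle replicate 3 by 1.03 (adjusted p = 0.0077). A second Col5a2 probe set passed in this comparison, with no overlap, at 1.06 (adjusted p = 0.0023), as did the mean of probe sets at 0.87 (adjusted p = 0.010).

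The remaining type V chains had smaller differences. Col5a1 was at 10.23 to 10.94 in the s-shaped body, 8.16 to 9.14 in the renal vesicle and 8.89 to 9.67 in the duct, and the s-shaped body was higher by 1.90 ± 0.28 (SE, adjusted p = 2.6e-04) and 1.33 ± 0.28 (SE, adjusted p = 0.0031). A second Col5a1 probe set gave -0.02 and 0.41 (adjusted p = 0.95 and 0.27), so the Col5a1 difference was not seen on both. The renal vesicle differed from the duct by -0.57 (95% interval -1.27 to 0.12, adjusted p = 0.15) in Col5a1, and without renal vesicle replicate 3 by -0.82 (adjusted p = 0.049). Col5a3 was at 8.003 to 8.84 in the s-shaped body, 7.23 to 7.87 in the renal vesicle and 7.39 to 7.67 in the duct. Its differences of 0.88 ± 0.24 (SE, adjusted p = 0.012) and 0.92 ± 0.24 (SE, adjusted p = 0.011) missed the threshold without s-shaped body replicate 1 (0.68 and 0.72, adjusted p = 0.059 and 0.054), and the former also without renal vesicle replicate 1 (0.71, adjusted p = 0.058). The remaining fibrillar genes in the table, Col2a1, Col11a1 and Col11a2, were too dim to be tested.

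**Figure D4:**
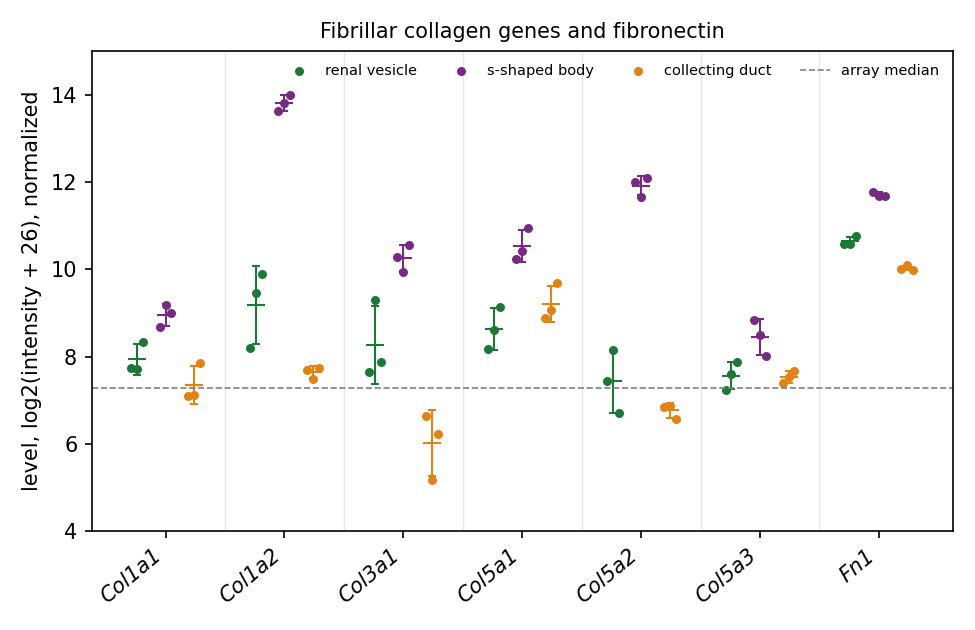
Levels of the 6 tested fibrillar collagens and of Fn1, log2(intensity + 26), in the 3 structures; points are arrays, short lines are means of 3 with their SD, and the dashed line is the array median. The s-shaped body arrays lie above all arrays of the other structures in every gene, and the renal vesicle arrays spread widely in Col1a2, Col3a1 and Col5a2.

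The stromal, endothelial and podocyte marker sums were, like the fibrillar genes, highest in the s-shaped body. Of 10 tested stromal markers, the s-shaped body had 8 higher and 0 lower than the duct and 7 higher and 1 lower than the renal vesicle, which had 6 higher and 0 lower than the duct. Of 8 tested podocyte markers, the counts were 7 and 0, 8 and 0, and 4 and 1 in the same order. Of all genes, 16.9% and 15.9%, 18.5% and 17.8%, and 15.6% and 15.9% were higher and lower in these comparisons. Pdgfrb, a receptor of mural and stromal cells, measured 11.65, 11.53 and 11.94 in the s-shaped bodies, 7.01, 7.88 and 8.54 in the renal vesicle and 6.02, 5.82 and 6.20 in the duct. Foxd1, listed here as a stromal marker, measured 10.71, 10.50 and 10.86, 7.56, 7.21 and 8.95 and 5.25, 5.47 and 6.02 in the same order. Of the stromal and endothelial markers, Cnn1, Snai2, Tbx18, Twist1, Zeb2, Erg, Pecam1 and Tie1 did not pass the filter, and their means in the s-shaped body were 5.45 to 7.38. The part of such cells in the fibrillar result was not tested.

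**Figure D5:**
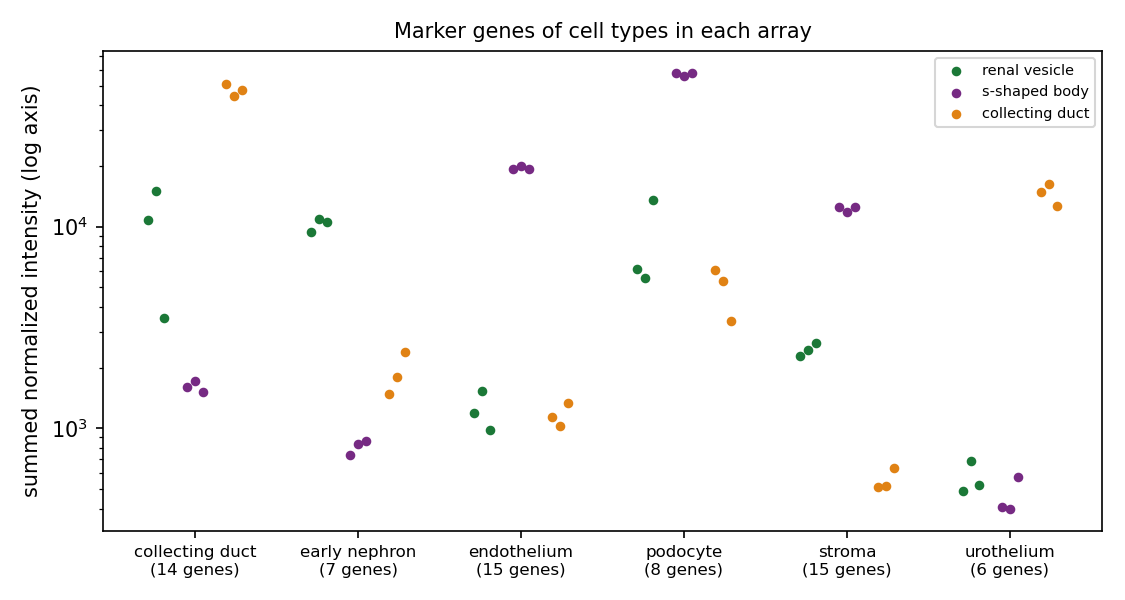
Summed normalized intensity of each marker list (log axis) in the 9 arrays, grouped by structure; each point is 1 array. The endothelial, stromal and podocyte sums are highest in the s-shaped body, and the urothelial and collecting duct sums in the collecting duct. The early nephron sum is highest in the renal vesicle.

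Fibronectin, the provisional matrix protein that binds integrins and collagens, was also highest in the s-shaped body. Fn1 measured 11.78, 11.68 and 11.68 there, 10.58, 10.57 and 10.77 in the renal vesicle and 9.999, 10.09 and 9.99 in the duct, with no overlap. Its differences were 1.07 ± 0.14 (SE, adjusted p = 1.0e-04) between the nephron stages, 1.69 ± 0.14 (SE, adjusted p = 1.6e-06) between s-shaped body and duct, and 0.61 ± 0.14 (SE, adjusted p = 0.0059) between renal vesicle and duct. A second, dimmer Fn1 probe set gave -0.20 between the nephron stages (adjusted p = 0.58) and 0.55 between s-shaped body and duct (adjusted p = 0.13). The lead of the s-shaped body over either other structure was thus not seen on both. On the second probe set the renal vesicle exceeded the duct by 0.75 (adjusted p = 0.043).

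Of the 9 other collagens tested, 2 differed over the 3 structures by the moderated F test, against 49.6% of all genes, and 26 of all 38 matrix genes did. Col13a1, a transmembrane collagen, was highest in the renal vesicle, at 8.65, 8.67 and 9.23, against 7.40, 7.16 and 7.27 in the s-shaped bodies and 6.43, 6.52 and 6.26 in the duct. The renal vesicle exceeded the duct by 2.45 ± 0.21 (SE, adjusted p = 2.9e-06), and the s-shaped body lay between, with differences of -1.58 ± 0.21 (SE, adjusted p = 1.0e-04) from the renal vesicle and 0.87 ± 0.21 (SE, adjusted p = 0.0061) from the duct. Col6a2, a chain of microfibrillar type VI collagen, was higher in the s-shaped body (8.35 to 8.98) than in the duct (7.28 to 7.996), by 1.13 ± 0.27 (SE, adjusted p = 0.0062). A second Col6a2 probe set gave 0.40 against the duct and 0.42 against the renal vesicle and passed in neither (adjusted p = 0.27 and 0.23). On the first, Col6a2 was also higher than in the renal vesicle by 0.75 ± 0.27 (SE, adjusted p = 0.046), a call lost without any 1 of renal vesicle replicates 1 and 2, s-shaped body replicates 1 and 3 and collecting duct replicate 2, with differences of 0.50 to 0.87 and adjusted p-values of 0.053 to 0.20.

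The partner chains of type VI collagen passed no test. Col6a1 differed by -0.95 (95% interval -1.79 to -0.10, adjusted p = 0.056) between renal vesicle and duct, with renal vesicle arrays of 6.68, 8.21 and 6.61, and without the high replicate 2 by -1.47 (adjusted p = 0.00037), when the s-shaped body also exceeded the renal vesicle by 0.96 (adjusted p = 0.0055). Col6a3 was at 7.99 to 8.12 in the s-shaped bodies and 7.31 to 7.73 in the duct, a difference of 0.56 (95% interval 0.06 to 1.07, adjusted p = 0.054), which passed the test without collecting duct replicate 1 (0.67, adjusted p = 0.039) or renal vesicle replicate 3 (0.56, adjusted p = 0.033). Col9a1, a cartilage collagen, was slightly lower in the s-shaped body than in the duct, with a difference of -0.50 ± 0.18 (SE, adjusted p = 0.047), a call lost when any 1 array was left out, with adjusted p-values of 0.051 to 0.15. A second Col9a1 probe set, which also passed the filter, went the other way. It measured 8.69, 9.03 and 9.08 in the renal vesicle, 7.45, 6.64 and 7.73 in the s-shaped bodies and 6.63, 6.36 and 5.84 in the duct, and relative to the duct the s-shaped body was higher by 1.00 (adjusted p = 0.024) and the renal vesicle by 2.66 (adjusted p = 4.0e-05), so Col9a1 has no settled direction. Col14a1, Col16a1, Col25a1 and Col26a1 passed no test, with mean levels between 6.85 and 7.97.

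Of the 51 genes, 13 did not pass the filter and were not tested: Col17a1 and Col4a4 of the basement membrane, Col2a1, Col11a1 and Col11a2 of the fibrillar group, and Col8a1, Col9a2, Col9a3, Col10a1, Col12a1, Col19a1, Col20a1 and Col22a1. Their levels over all arrays lay between 4.82 and 7.41. Another kept probe set was present for 12 of the tested genes. Its difference had the same sign as that of the probe set used in 8 of 12 genes for renal vesicle against duct, 7 of 12 for s-shaped body against duct and 9 of 12 for s-shaped body against renal vesicle. In a fit over all kept probe sets no gene had both passing in opposite directions, since the first Col9a1 probe set, which passed in the fit over genes, had an adjusted p of 0.052 there for s-shaped body against duct. Second probe sets not described above were those of Col1a2, Col18a1, Lama5 and Col4a5, and each passed with the same sign wherever the first did.

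Genes that process collagen or sit beside it were read from 3 lists. These were chosen with earlier results of these data known, so their counts are a description. Of 26 tested genes for collagen and matrix processing, the renal vesicle had 7 higher and 2 lower than the duct, and the s-shaped body had 14 higher and 1 lower than the duct and 15 higher and 2 lower than the renal vesicle. The shares of all genes were 15.6% and 15.9%, 16.9% and 15.9%, and 18.5% and 17.8% in this order, here and for the lists that follow. Pcolce, an enhancer of procollagen cleavage, measured 12.996, 13.40 and 13.42 in the s-shaped bodies, 8.26, 8.86 and 9.73 in the renal vesicle and 9.17, 9.09 and 10.12 in the duct. Its s-shaped body arrays lay above all others, by 4.32 ± 0.35 (SE, adjusted p = 2.5e-06) and 3.81 ± 0.35 (SE, adjusted p = 3.2e-06). Loxl1, a cross-linking lysyl oxidase, and P3h1, a prolyl 3-hydroxylase of collagen, were graded like the nidogens, with differences of 4.38 and 3.26 between s-shaped body and duct (adjusted p = 1.0e-06 and 3.0e-06). Tgm2, a transglutaminase that cross-links matrix proteins, ran opposite, at 13.39, 13.37 and 13.86 in the duct and 10.19, 9.55 and 9.60 in the s-shaped body. Serpinh1, the collagen chaperone Hsp47, passed no test and had means of 10.38, 10.49 and 10.23 in renal vesicle, s-shaped body and duct.

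Of 13 tested small leucine-rich and fibril-associated genes, the renal vesicle had 5 higher and 3 lower than the duct, and the s-shaped body had 5 higher and 1 lower than the duct and 4 higher and 2 lower than the renal vesicle, where 18.5% and 17.8% of all genes were. Fbn2, a fibrillin of embryonic microfibrils, was higher in both nephron stages than in the duct, by 4.10 ± 0.20 (SE, adjusted p = 2.5e-08) and 3.75 ± 0.20 (SE, adjusted p = 3.5e-08). Emilin1 and Bgn, an elastic fibre protein and a small proteoglycan, were graded from duct to s-shaped body, with differences of 3.44 and 2.93 between the ends (adjusted p = 3.6e-07 and 4.5e-07). Efemp1, a fibulin, was lower in both nephron stages than in the duct, with differences of -4.23 ± 0.23 (SE, adjusted p = 6.6e-08) and -3.61 ± 0.23 (SE, adjusted p = 1.5e-07).

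The receptors and binding partners of the basement membrane counted 11 tested genes, of which the renal vesicle had 1 higher and 5 lower than the duct, and the s-shaped body 4 higher and 2 lower than the duct and 5 higher and 1 lower than the renal vesicle, beside the same shares of all genes. Dag1, dystroglycan, a laminin receptor, measured 12.98, 13.30 and 13.15 in the s-shaped body, above 11.66, 11.66 and 12.05 in the renal vesicle and 11.65, 11.71 and 11.64 in the duct, by 1.36 ± 0.15 (SE, adjusted p = 2.1e-05) and 1.48 ± 0.15 (SE, adjusted p = 6.1e-06). Itga3, the alpha chain of a receptor for Lama5 laminins, was lowest in the renal vesicle, as Lama5 was. The renal vesicle differed from the duct by -0.65 ± 0.17 (SE, adjusted p = 0.014), and the s-shaped body exceeded the renal vesicle by 1.51 ± 0.17 (SE, adjusted p = 3.8e-05). Smoc2 and Egfl6, secreted basement membrane proteins, were highest in the duct, with differences of -3.23 and -2.78 for s-shaped body against duct (adjusted p = 8.3e-06 and 7.1e-06).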

How the data were processed

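Transcript levels of 9 samples, 3 of each structure, were analysed. The authors deposited 1 linear intensity per probe set and array, made with GCOS per the submitters' processing notes, which give neither version nor algorithm. Arrays give no counts, and their number limits the precision. No detection call was used. The 64 control probe sets were left out.

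To each intensity 26 was added, the 20th percentile of all values, before log2. Array medians then differed by 0.30, above a limit of 0.25, so quantile normalization was applied. Probe sets above the array median in at least 3 arrays were kept, the one with the highest mean stood for its gene, and two-sided tests of 7998 genes were run in limma 3.58.1 under R 4.3.3 (lmFit, eBayes with intensity trend, 6 residual degrees of freedom, no covariates, all 9 arrays). P-values were adjusted by Benjamini-Hochberg within each comparison. Intervals of 95% used the moderated standard error and 6 degrees of freedom. A second probe set's adjusted p comes from a fit over all kept probe sets. The procedure was tested on simulated data.

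Members, classes, gene lists and marker lists were chosen with earlier results of these data known. Every collagen, laminin or named gene was accounted for, and of each further matrix list up to 4 genes with the smallest F test p-value, plus Serpinh1, chosen after its values were seen, were named. Replicate numbers were not used to pair the samples in the main fit. The deviations of same-numbered arrays correlated at -0.034 to 0.16 and those of different-numbered arrays at -0.16 to 0.15, so whether the numbers mark a pairing is not known. Each sample is a biological replicate per the labels, but no label says which embryos it came from. Promoter windows and start sites come from RefSeq's tables of GRCm38.p6, in which all 51 genes were found, and the arrays' own build is not given in the sources used here.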

Additional observations from a re-analysis of the deposited data

How the results depend on the processing

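The counts of called matrix genes were recomputed under 21 settings: another pseudocount, a stricter intensity filter or none, median centring or none, the mean of all kept probe sets, the brightest probe set chosen before the filter, no intensity trend, array weights, a fit of just the structures compared, the replicate block, and each array left out. A threshold of 0.01 was tried besides. Of 66 calls among the 114 pairs of gene and comparison, 54 were kept under every setting that tested them. With array weights, 31 genes were called for renal vesicle against collecting duct in place of 18, and 5 of the 6 fibrillar collagens in place of 2. The weights ran from 0.227 to 11.9, both on collecting duct arrays, the estimate stopped before convergence, and the calls over all genes in the 3 comparisons were 4753, 4507 and 3977, in place of 2519, 2624 and 2907 (6117 in place of 3970 over any structure). At an adjusted p under 0.01 they were 1561, 1745 and 1931. Leaving out 1 array gave 18 to 21, 20 to 23 and 21 to 25 calls in the 3 comparisons, and 2 to 4 for the fibrillar collagens between renal vesicle and duct, with 4 without renal vesicle replicate 3. Over all genes these fits gave 1964 to 2607, 2103 to 2793 and 2215 to 3401 calls. Col9a1 reversed with the choice of probe set: against the duct, the renal vesicle was 1.28 with the mean of probe sets and 2.66 with the stricter filter (main value -0.11), and the s-shaped body 0.25 and 1.00 (main value -0.50). Without a filter Lamc3 gave -0.064 for s-shaped body against duct (main value 1.58), because another probe set then represents it. Fn1 between the nephron stages was 0.44 (adjusted p = 0.051) with the mean of probe sets.

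Under median centring all genes had a median difference of 0.11 for renal vesicle against duct (main value 0.01) and of -0.11 for s-shaped body against renal vesicle (main value -0.03), and there were 1559 genes higher and 1045 lower in the former, where 13 matrix genes were higher and 6 lower. Without normalization the former had 1138 higher and 1447 lower, with 12 and 8 matrix genes. With the replicate block, 20, 22 and 24 matrix genes were called in the 3 comparisons and 27 over any structure. Over all genes the block gave 2607, 2644 and 2995 calls, and 4015 over any structure. It lost Lamb1 between the nephron stages and Col9a1 between s-shaped body and duct, and gained Col5a1 and Col6a1 between renal vesicle and duct. The shared numbers are not known to mark a shared day or litter, and 4 of 9 arrays correlated best with their own number.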
